A study of Mus musculus with 21 samples.

Results

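The comparison set 3 arrays of epididymal fat from mice fed a high-fat diet with 0.9% fermented mixed grain, labelled H_FMG, against 3 arrays from mice fed the same diet with 0.3% of that grain, labelled L_FMG. These 6 arrays were chosen by their titles from the 21 arrays of the series, and each gene was represented by its brightest probe with a single gene symbol, which gave 16248 genes. The question, as the series states it, was whether the effects of fermented grain on diet-induced obesity depend on the dose. No gene passed the threshold between the doses. Among the genes whose arrays did not overlap, the lipid synthesis regulator Mlxipl was at a higher level in H_FMG, and the matrix gene Aebp1 and the interferon-induced gene Oasl2 were at lower levels.

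All mice were male C57BL/6J, an inbred strain that becomes obese on fatty food. They arrived at 4 weeks of age, were housed singly, had 1 week on chow and then 12 weeks on their diet. H_FMG mice ate a diet with 40% of its energy from fat that contained 0.9% fermented mixed grain by weight, and L_FMG mice the same diet with 0.3%. A pair of further groups serves as landmarks here: HFD mice ate the 40% fat diet with no supplement, and ND mice a diet with 10% of its energy from fat. The labels do not name the grains or the microbe that fermented them. No number of mice is stated for the dose groups, against 10 each for HFD and ND. The labels do not say how animals were picked for the arrays or whether each array is 1 animal. P-values therefore measure the spread between arrays.

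Epididymal fat is the visceral pad beside the testis. Its adipocytes store triglyceride and release hormones such as leptin and adiponectin, and they are served by capillaries, fibroblast-like progenitors and resident macrophages. On a fatty diet the pad of this strain classically enlarges, gathers macrophages around stressed adipocytes and deposits collagen, while genes of lipid synthesis are dampened. Cereal fermentation releases soluble sugars, peptides and phenolic compounds from the grain. The arrays measured whole tissue, so fewer cells of a type and less RNA per cell cannot be told apart in any value below.

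The labelled tissue showed its defining genes. Adiponectin (Adipoq) was at 9.44, 9.50 and 9.55 in the H_FMG arrays numbered 3, 6 and 8, and at 9.44, 9.54 and 9.21 in the L_FMG arrays numbered 4, 8 and 10, on a log2 scale that ran from 0.844 to 12.7 over all probes and arrays. All values per array below follow this order of numbers. Medians of the arrays over all probes lay between 4.23 and 4.39, and 0 pairs of arrays were identical. Arrays carry no read depth, so their number limits the precision.

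A single array stood apart. L_FMG array 4 exceeded the highest of the other 11 H_FMG, L_FMG, HFD and ND arrays by more than 1 log2 unit for 78 genes, while H_FMG array 8 did so for 1 gene and the other 4 arrays of these doses for 0 genes. Among these genes were Lrp2, the endocytic receptor megalin of absorptive epithelia, at 6.90 against at most 3.81 in the other arrays, and Epcam, an adhesion protein of epithelial cells, at 4.98 against at most 3.34. Pax8, a transcription factor of epithelia of the urinary and genital tracts, was at 4.97 against at most 3.36. Genes of motile cilia were also there: Dnah5, an outer dynein arm motor, was at 5.72 against at most 3.90, and Rsph4a, a radial spoke protein, was at 4.86 against at most 2.78. These genes were chosen after their values were seen. None of the 78 belonged to a list of 20 measured epididymis duct genes, whose mean level was 3.08, 3.22 and 3.14 in H_FMG and 2.90, 3.09 and 3.14 in L_FMG, lowest in array 4. Values without this array are given beside several differences. The source of the 78 genes was not tested, nor was their part in other differences.

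With a model fitted over all 21 arrays (limma, adjusted by the method of Benjamini and Hochberg, threshold 0.05), 0 of 16248 genes differed between H_FMG and L_FMG, which is 0 percent. The smallest adjusted p was 0.998. At an unadjusted p under 0.05 the same test gave 636 genes, 365 higher and 271 lower in H_FMG, or 2.25 and 1.67 percent of those tested. When no gene differs, a threshold of 0.05 passes a share of 0.05 on average, more than these percentages together. No setting tried, quantile normalization and array weights included, called any gene. Without L_FMG array 4 there were again 0 calls and 563 genes at an unadjusted p under 0.05.

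The size of the differences was small. Their median was 0.0068 log2 units, their SD over genes was 0.17, and 8424 genes (51.8%) were higher in H_FMG. A p that misses a threshold does not show that the doses act alike, so the intervals matter: the 95% interval lay within a 2-fold difference either way for 15985 genes (98.4%) and within 1.5-fold for 13588 genes (83.6%). Its median half-width was 0.31 log2 units. Both shares count genes of every level, the dimmest included, and each interval is for its gene alone, not adjusted for the number of genes. The means of 7 genes differed by more than 2-fold, and all 7 were lower in H_FMG. They were Atp1b1, Cxcl13, Dcdc2a, Igkv9-120, Lrp2, Tmem212 and ccdc198, and all except Cxcl13 had their highest level in L_FMG array 4. Atp1b1, a subunit of the sodium pump, shows the pattern: it was at 4.38, 4.96 and 4.55 in H_FMG and at 8.20, 4.64 and 5.04 in L_FMG. Its difference of -1.33 was -0.21 without L_FMG array 4. Without that array the differences of Lrp2, Dcdc2a, Tmem212, Igkv9-120 and ccdc198 were -0.10, -0.04, -0.15, -0.42 and -0.51, and that of Cxcl13 was -1.48.

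All H_FMG arrays lay above all L_FMG arrays for 779 genes, which is 4.79 percent, and below them for 533 genes, which is 3.28 percent. Either way it was 1312 genes, 8.07 percent. With 3 arrays each, arrays interchangeable between the doses separate fully either way with a probability of 0.1 per gene. The 8.07 percent lay under that. These shares of all genes are the background for every count of non-overlapping list members below.

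The genes described next had the largest differences among those whose arrays did not overlap, whose unadjusted p was under 0.05 and whose mean level was at or above the median gene, 15 in each direction. All 30 had an adjusted p of 0.998 (limma), so they are described and not called. Those higher in H_FMG differed by 0.37 to 0.54 log2 units, and those lower by -1.25 to -0.46. All 30 kept their sign in every setting, which non-overlapping arrays ensure whenever a single array is left out.

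Mlxipl, which encodes the carbohydrate-sensing transcription factor ChREBP that switches on fatty acid synthesis, had the smallest p among the 15 genes higher in H_FMG. It was at 6.92, 6.95 and 6.67 in H_FMG and at 6.57, 6.28 and 6.56 in L_FMG, with 6.60, 6.39 and 6.50 in HFD. The lowest H_FMG array stood just above the highest L_FMG array, and L_FMG lay among the HFD arrays. The difference was 0.37 ± 0.10 log2 units (SE, n = 3 arrays each), with a 95% interval of 0.16 to 0.59 and an unadjusted limma p of 0.00169. Leaving out single arrays moved it between 0.28 and 0.46.

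Other metabolic genes were in the same set. Abhd6, a lipase that hydrolyses monoacylglycerol, was at 6.99, 6.93 and 6.69 in H_FMG and at 6.60, 6.17 and 6.25 in L_FMG, while HFD had 6.62, 6.83 and 7.02. Here H_FMG lay near HFD (difference 0.04) and L_FMG lay below it (-0.49). Nudt12, a peroxisomal hydrolase of NADH and related nucleotides, was at 7.76, 7.42 and 7.31 in H_FMG and 6.97, 7.18 and 6.72 in L_FMG. Pdxp, which dephosphorylates the vitamin B6 cofactor pyridoxal phosphate, lay between 4.85 and 5.18 in H_FMG and was at 4.79, 4.70 and 4.37 in L_FMG. Tmem120b, a relative of the adipogenesis gene Tmem120a, was at 8.48, 8.06 and 8.47 in H_FMG and at 7.97, 8.04 and 7.83 in L_FMG. For Tmem120b the gap between the nearest arrays was narrow.

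Genes with other roles completed the set. Tob1, an antiproliferative protein that recruits deadenylases to mRNAs, was at 7.83, 7.67 and 7.76 in H_FMG and at 7.37, 7.43 and 7.35 in L_FMG, a difference of 0.37 ± 0.12. Both groups of Tob1 values were tight. Cdc25b, a phosphatase that admits cells to mitosis, was at 5.40, 5.004 and 5.05 in H_FMG and at 4.99, 4.59 and 4.50 in L_FMG, with the lower values in L_FMG than in HFD (5.03, 5.18 and 5.01). Hspb7, a small heat shock protein of muscle, was at 7.28, 7.12 and 6.94 in H_FMG and at 6.56, 6.66 and 6.58 in L_FMG. The HFD arrays of Hspb7 (7.02, 6.51 and 7.37) spanned both doses. The remaining genes of this set were Tmem37, Lhx6, Galr1, St6galnac3, Rapgef5, Prss12 and Sntb1.

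**Figure D1:**
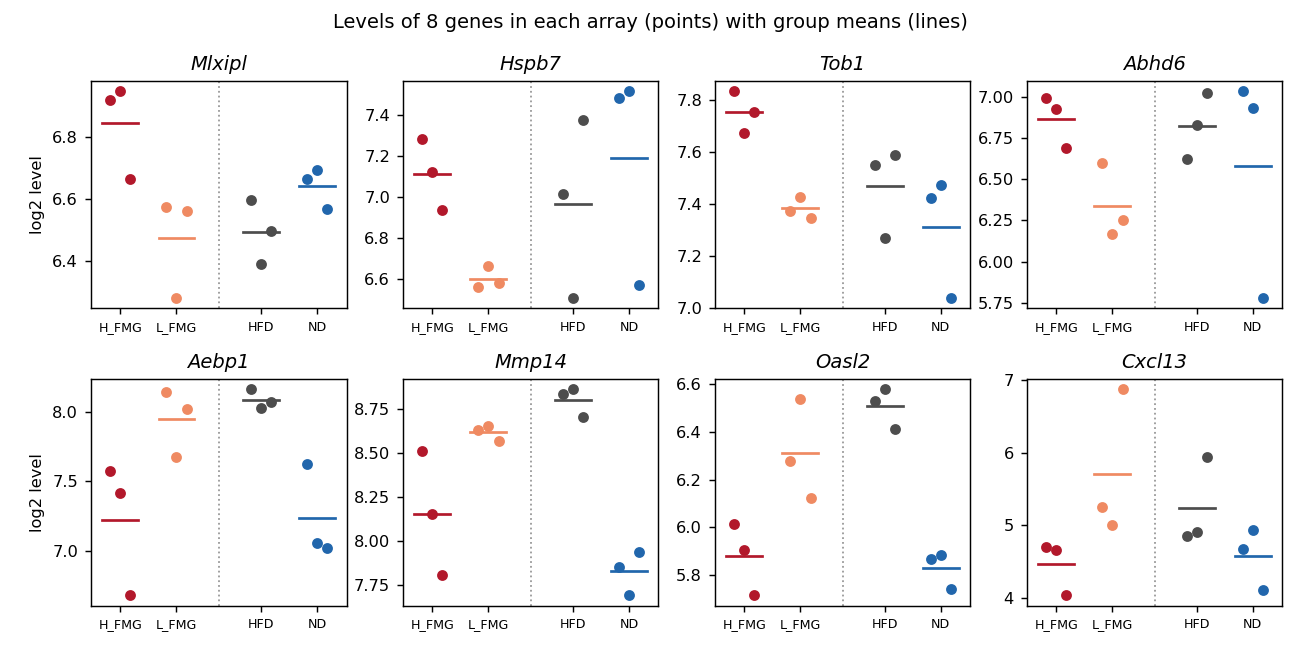
Log2 levels of 8 genes in each array (points) with group means (lines), for H_FMG and L_FMG left of the dotted line and HFD and ND right of it, each panel with its own axis range. In all 8 panels the H_FMG and L_FMG points do not overlap, and the L_FMG mean of Cxcl13 is carried by 1 point at 6.88.

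Among the 15 genes lower in H_FMG, several encode proteins that build or remodel the matrix. Aebp1, a collagen-binding protein that promotes fibrosis and holds back adipogenesis, was at 7.57, 7.41 and 6.68 in H_FMG and at 8.15, 7.68 and 8.02 in L_FMG, against 8.16, 8.03 and 8.07 in HFD. The L_FMG arrays of Aebp1 lay at or just under the HFD level, and H_FMG overlapped the ND arrays at 7.63, 7.05 and 7.02. Its difference was -0.73 ± 0.21, with an interval of -1.17 to -0.28, and it was -0.45 without H_FMG array 8. Mmp14, a membrane-bound collagenase, was at 8.51, 8.15 and 7.81 in H_FMG and at 8.63, 8.66 and 8.57 in L_FMG. The 3 L_FMG values were nearly equal and those of H_FMG spread, and the difference of -0.46 ± 0.16 became -0.64 without H_FMG array 3 and -0.29 without H_FMG array 8. Hpse, which cleaves heparan sulphate, was at 5.75, 5.30 and 4.93 in H_FMG and at 5.79, 5.78 and 5.79 in L_FMG. Pdpn, the podoplanin of lymphatic, mesothelial and some stromal cells, was at 6.93, 6.88 and 6.77 in H_FMG and at 7.44, 7.10 and 7.47 in L_FMG.

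Immune and cytokine genes were also in this set. Cxcl13, the chemokine that draws B cells into lymphoid clusters, had the largest difference of the 30. It was at 4.69, 4.65 and 4.03 in H_FMG and at 5.24, 4.999 and 6.88 in L_FMG. The difference was -1.25 ± 0.47, and it was -0.66 without L_FMG array 10. Markers of B and plasma cells gave no common picture: 0 of 11 measured lay wholly lower in H_FMG and 1 wholly higher, and Jchain, the joining chain of secreted antibodies, was at 3.08, 3.40 and 4.19 in H_FMG and at 4.63, 2.97 and 5.82 in L_FMG. Socs2, which dampens growth hormone signalling, was at 4.40, 4.37 and 4.08 in H_FMG and at 4.89, 5.04 and 4.75 in L_FMG, while its HFD arrays were scattered (5.01, 4.38 and 5.62). Ifi204, an interferon-induced DNA sensor, was at 5.62, 5.14 and 5.33 in H_FMG and at 6.05, 6.04 and 5.70 in L_FMG.

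For 4 genes of this set the difference was over 1.5 times smaller without L_FMG array 4. Wdr66, which encodes a part of motile cilia, gave -0.48 with all arrays and -0.32 without that array. Rsph3a, a radial spoke protein of cilia, moved less without it (-0.49 with all arrays and -0.44 without array 4), and was at -0.36 without H_FMG array 8 and at -0.24 when its probes were averaged. Ezr, which links membrane to actin in epithelial and mesothelial cells, was at 6.74, 6.62 and 6.31 in H_FMG and at 7.44, 6.86 and 6.81 in L_FMG. Its difference of -0.48 was -0.28 without array 4. Chka, the choline kinase of phosphatidylcholine synthesis, gave -0.55 with all arrays and -0.36 without array 4, and Ccbe1, needed for lymphatic vessel growth, gave -0.54 and -0.34. The other genes of the set were Slain1, Zfp935 and Tmem229b-ps.

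The interferon-induced genes had one of the lowest list medians. Of 28 listed genes 21 were measured, and 16 of the 21 were lower in H_FMG. In H_FMG 5 of the 21 lay wholly below L_FMG, which is 23.8 percent beside 3.28 percent of all genes, and 0 lay wholly above. Oasl2, an oligoadenylate synthetase-like antiviral protein, had the smallest p of the list. It was at 6.02, 5.90 and 5.72 in H_FMG, 6.28, 6.54 and 6.12 in L_FMG and 6.53, 6.58 and 6.41 in HFD. ND arrays were at 5.87, 5.88 and 5.74, within the H_FMG range. The difference between doses was -0.43 ± 0.12 (interval -0.68 to -0.18, unadjusted limma p 0.00166, adjusted p 0.998), or 0.74 times the L_FMG level.

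Differences of the list members ran from -0.57 for Ifi204 to 0.08 for Oas3. Ifi205, a relative of Ifi204, was at 8.52, 8.01 and 7.66 in H_FMG and at 8.64, 8.33 and 8.53 in L_FMG, with array 3 inside the L_FMG range. Mx2, a dynamin-like antiviral GTPase, was at 3.82, 3.56 and 3.04 in H_FMG and at 4.16, 3.76 and 3.78 in L_FMG. Isg15, a ubiquitin-like modifier, and Ifit1, which binds viral RNA caps, are added here for their promoters and were chosen after their values were seen. Isg15 was at 3.85, 3.77 and 3.40 in H_FMG and at 4.05, 4.13 and 3.75 in L_FMG, and Ifit1 at 5.35, 5.44 and 5.49 in H_FMG and at 5.74, 5.76 and 5.57 in L_FMG. The list median was -0.27, beside 0.0068 over all genes, and lay between -0.32 and -0.20 over the settings tried. Against HFD, the list medians were -0.12 for H_FMG and 0.0024 for L_FMG, comparisons that share their 3 HFD arrays.

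The promoters of these genes are shown because interferon acts through a short element read by STAT and IRF factors, searched here as GAAA, any 2 letters and GAAA again. The sequences are the 250 bases before the start of each gene from RefSeq (build GRCm38.p6), 5' to 3' on the gene's strand, with matches on either strand in capitals (TTTC, any 2 letters and TTTC when read on the other strand). Of the 21 measured genes 14 had an entry, and 8 of the 14 (57.1%) held the letters, beside 936 of 27025 genes (3.46%) with an entry. In Isg15 3 matches overlap, in Ifit1 there are 2, in Ifi205 there is 1, and Oasl2 has 0 in this window. A match is a description of the letters and not a measured site.
Oasl2 (chr5:114896684-114896933, plus strand): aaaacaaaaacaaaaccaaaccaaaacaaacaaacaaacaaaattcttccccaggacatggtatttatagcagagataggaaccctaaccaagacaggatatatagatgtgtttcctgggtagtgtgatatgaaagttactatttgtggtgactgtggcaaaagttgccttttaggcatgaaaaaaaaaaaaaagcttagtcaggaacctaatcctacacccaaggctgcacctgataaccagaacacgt
Ifi205 (chr1:174031756-174032005, minus strand): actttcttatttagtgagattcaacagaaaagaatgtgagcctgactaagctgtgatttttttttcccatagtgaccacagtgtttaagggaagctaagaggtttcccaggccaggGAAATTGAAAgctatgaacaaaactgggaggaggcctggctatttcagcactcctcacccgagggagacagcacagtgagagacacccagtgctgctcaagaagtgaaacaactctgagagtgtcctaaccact
Isg15 (chr4:156200819-156201068, minus strand): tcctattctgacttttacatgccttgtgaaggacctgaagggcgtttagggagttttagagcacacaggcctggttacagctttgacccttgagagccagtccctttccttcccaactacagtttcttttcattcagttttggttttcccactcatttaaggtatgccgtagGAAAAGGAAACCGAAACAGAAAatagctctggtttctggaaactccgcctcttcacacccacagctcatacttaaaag
Ifit1 (chr19:34640639-34640888, plus strand): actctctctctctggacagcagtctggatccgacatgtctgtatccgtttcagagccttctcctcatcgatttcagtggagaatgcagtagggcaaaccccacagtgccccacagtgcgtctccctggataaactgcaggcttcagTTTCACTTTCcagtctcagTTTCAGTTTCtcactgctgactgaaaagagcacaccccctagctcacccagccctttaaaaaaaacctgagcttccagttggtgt

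Macrophage genes had lower means in H_FMG, but with overlapping arrays. Of 15 measured general macrophage genes 14 were lower in H_FMG, the list median was -0.27, and 0 of the 15 had non-overlapping arrays. The mean level of the list was 8.45, 8.07 and 7.57 in H_FMG, 8.29, 8.47 and 8.07 in L_FMG, 8.75, 8.97 and 8.75 in HFD and 7.51, 7.44 and 8.06 in ND. H_FMG array 3 was as high as the L_FMG arrays, and array 8 was near the ND arrays. Adgre1, the F4/80 antigen, was at 8.78, 8.26 and 7.67 in H_FMG and at 8.64, 8.91 and 8.30 in L_FMG, a difference of -0.38 with an interval of -1.03 to 0.28, or -0.09 without H_FMG array 8. The list median was -0.47 without H_FMG array 3 and -0.024 without H_FMG array 8, so array 8 carried most of it.

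The related lists followed the same arrays. Lipid-associated macrophage genes had a median of -0.17 with 10 of 14 lower, 0 wholly below and 1 (7.14%) wholly above, and lysosome and proton pump genes had a median of -0.16, with 16 of 17 lower and 0 non-overlapping. Ctsl, a lysosomal cysteine protease, was at 10.32, 10.13 and 9.74 in H_FMG and at 10.37, 10.38 and 10.19 in L_FMG. Without H_FMG array 8 these 2 medians were -0.0041 and -0.028. Side by side against the shared HFD arrays, the general macrophage median was -0.81 for H_FMG and -0.57 for L_FMG, and the lysosome median -0.56 for H_FMG and -0.35 for L_FMG.

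Monocyte, neutrophil and chemokine genes gave more members without overlap. Of 12 monocyte and neutrophil genes 4 (33.3%) lay wholly below L_FMG, beside 3.28 percent of all genes. In this list 8 genes were lower in H_FMG and 4 higher, and 0 lay wholly above. The neutrophil gene S100a9 had the highest difference of the list, 0.25 (interval -0.10 to 0.60). Csf3r, the receptor for the granulocyte growth factor, was at 5.36, 5.14 and 4.80 in H_FMG and at 5.43, 5.54 and 5.41 in L_FMG, and Plac8, a marker of recruited monocytes, was at 4.35, 4.25 and 4.31 in H_FMG and at 4.77, 4.59 and 4.61 in L_FMG. Of the 4 genes wholly below, 2 are also on the matrix list (Fn1 and Vcan). Of 19 CC and CXC chemokines 15 were lower in H_FMG and 2 (10.5%) wholly so, Cxcl13 and Ccl12. Ccl5, a T cell and monocyte attractant, was at 6.70, 6.16 and 6.31 in H_FMG and at 7.42, 6.99 and 6.40 in L_FMG, with overlap. The chemokine median of -0.20 was -0.03 without H_FMG array 8.

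Csf1, the growth factor that macrophages need, had a p close to that of Oasl2. It was at 6.84, 6.64 and 6.51 in H_FMG, 7.09, 6.94 and 7.03 in L_FMG and 6.87, 6.84 and 6.86 in HFD, so L_FMG was above HFD and H_FMG at or below it. The difference was -0.36 ± 0.10 (unadjusted limma p 0.00188, adjusted p 0.998). Il1b, an inflammatory cytokine, was at 2.88, 2.44 and 2.84 in H_FMG and at 2.91, 3.23 and 3.39 in L_FMG. Tnf gave -0.22 (interval -0.66 to 0.23), Ccl2 gave -0.25 (-0.76 to 0.27) and Il6, at levels under 2.1 in the H_FMG, L_FMG, HFD and ND arrays, gave 0.20 (-0.06 to 0.47). The sign of Tnf and Ccl2 rested on H_FMG array 8: without it they gave 0.03 and 0.02, and without H_FMG array 3 they gave -0.49 and -0.45.

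Matrix and fibroblast genes lay lower in H_FMG with modest differences. Matrix proteases and their inhibitors had 3 of 11 measured genes (27.3%) wholly below L_FMG, matrix glycoproteins and crosslinking enzymes 4 of 19 (21.1%), and fibroblast and progenitor genes 2 of 13 (15.4%). None of the 3 lists had a member wholly above. Fn1, fibronectin, was at 10.50, 10.59 and 10.28 in H_FMG and at 10.76, 10.83 and 10.85 in L_FMG, with 10.96, 10.80 and 10.90 in HFD, a difference of -0.36 ± 0.12. Pdgfra, the receptor that marks adipose progenitors, was at 7.88, 7.97 and 7.77 in H_FMG and at 8.16, 8.17 and 8.52 in L_FMG, while HFD had 8.28, 8.35 and 8.23. For both genes L_FMG sat at the HFD level.

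Mmp11, a secreted protease of stroma, was at 5.58, 5.56 and 5.40 in H_FMG and at 5.76, 5.81 and 6.11 in L_FMG. Lum, the small leucine-rich proteoglycan lumican, was at 8.32, 7.81 and 7.10 in H_FMG and at 8.65, 8.18 and 7.88 in L_FMG, a wide spread in both. The collagens themselves overlapped: Col1a1 gave -0.32 (interval -0.67 to 0.04), or -0.17 without H_FMG array 8, and Col3a1 gave -0.30 (-0.61 to 0.02). Their list had 11 of 13 members lower and 1 wholly so.

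Mesothelial genes, which mark the sheet of cells covering the pad, had the lowest list median of the 47 lists. Of 11 measured genes 9 were lower in H_FMG, the median was -0.31, and 1 lay wholly below. The mean level of the list was 4.59, 4.92 and 4.79 in H_FMG, 5.26, 4.73 and 5.29 in L_FMG, 5.46, 4.75 and 4.80 in HFD and 5.50, 4.81 and 4.64 in ND. Arrays 4 and 10 of L_FMG and 1 array each of HFD and ND stood high. Upk3b, a uroplakin of mesothelium, was at 4.83, 5.18 and 4.90 in H_FMG and at 5.81, 4.97 and 6.43 in L_FMG. The median was -0.27 without L_FMG array 4, -0.51 without L_FMG array 8 and -0.18 without L_FMG array 10. These levels moved with Pdpn in L_FMG arrays 4 and 10 and with Ezr in array 4, and their part in those differences was not tested.

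**Figure D2:**
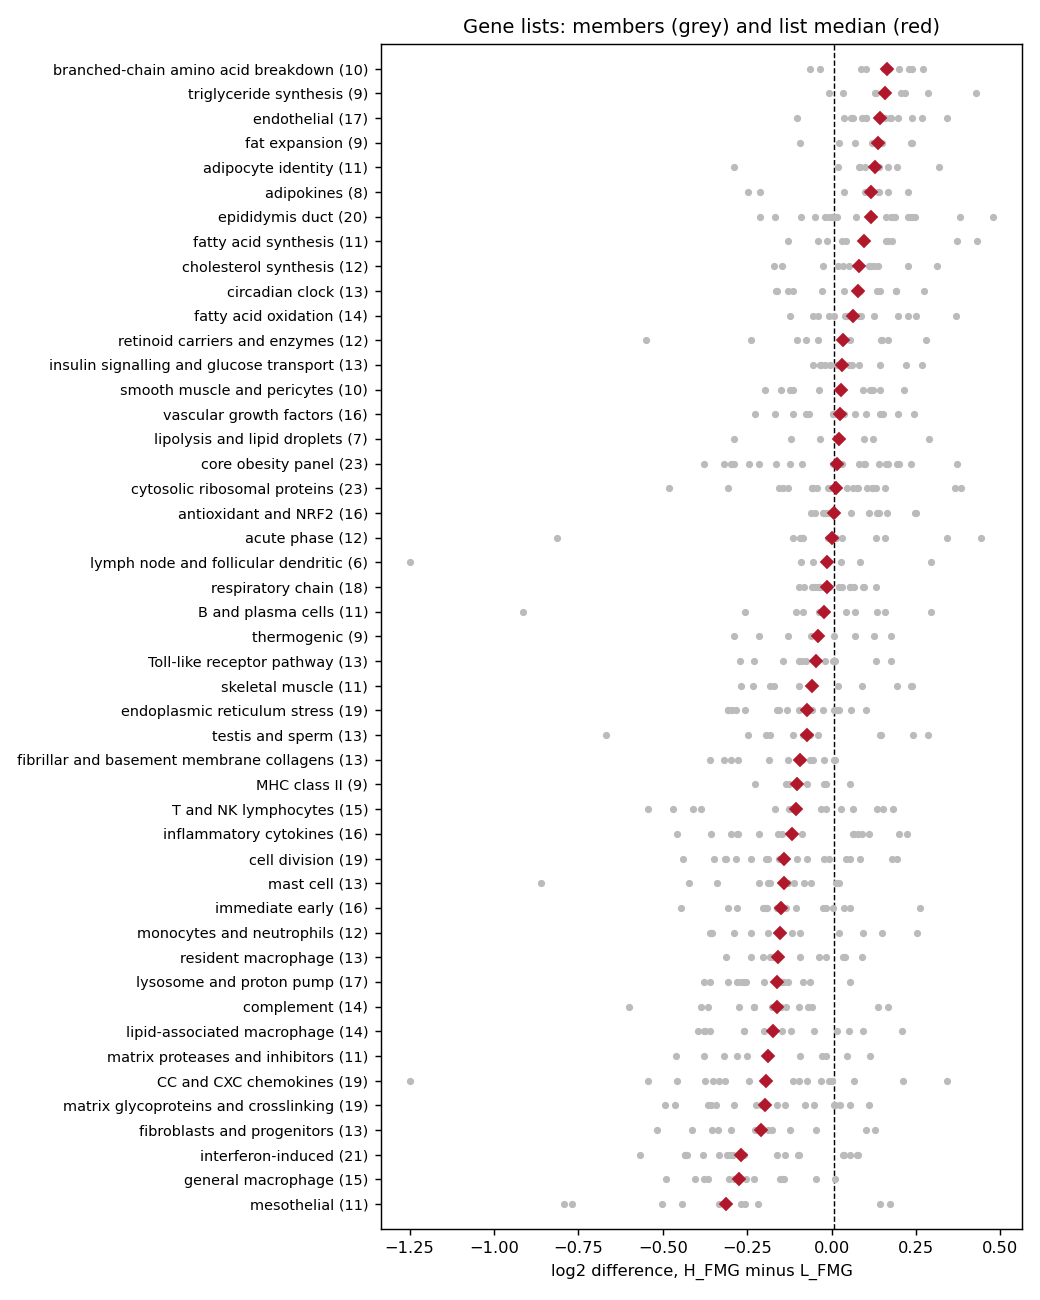
Log2 differences, H_FMG minus L_FMG, of the measured members (grey points) of 47 gene lists and the list medians (red diamonds), with the number of measured members beside each name and the median over all genes as a dashed line. Medians run from -0.31 for mesothelial genes to 0.16 for branched-chain amino acid breakdown, and members of most lists spread to both sides of 0.

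The genes of fat cells and their vessels lay on the other side. Of 11 measured adipocyte identity genes 10 were higher in H_FMG, with a median of 0.13 and 2 wholly above, 18.2 percent beside 4.79 percent of all genes, and 1 lay wholly below. The median was 0.066 without L_FMG array 10. Acvr1c, the activin-type receptor ALK7 of adipocytes, was at 7.23, 7.84 and 7.76 in H_FMG and at 7.28, 7.25 and 7.35 in L_FMG. Pparg, the master regulator of adipocytes, was at 8.98, 8.82 and 8.94 in H_FMG and at 8.74, 8.86 and 8.57 in L_FMG. Both genes overlapped between the doses. The exception was Cidea, a lipid droplet protein that is also a marker of brown-like adipocytes. It was at 4.05, 3.95 and 4.04 in H_FMG and at 4.29, 4.07 and 4.53 in L_FMG, a difference of -0.29 that was -0.17 without L_FMG array 10.

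Endothelial genes were higher in H_FMG for 16 of 17 members, with a median of 0.14 and 2 (11.8%) wholly above, beside 4.79 percent of all genes. Erg, a transcription factor that maintains endothelial identity, was at 6.95, 6.63 and 7.16 in H_FMG and at 6.68, 6.58 and 6.45 in L_FMG, with overlap. The pan-endothelial marker Pecam1 differed by 0.04 (interval -0.20 to 0.27), or by -0.06 without L_FMG array 10. The list median was 0.039 without H_FMG array 8, whose mean level of 7.94 was the highest of the 6 arrays. Against the shared HFD arrays the endothelial median was 0.44 for H_FMG and 0.29 for L_FMG, so both doses lay above HFD there.

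Lipid and amino acid metabolism gave small positive medians. Branched-chain amino acid breakdown had a median of 0.16, and 4 of 10 genes (40%) lay wholly above L_FMG. They were Dbt, Mmut, Aldh6a1 and Ivd, which encode mitochondrial enzymes of that route. Dbt, a core of the branched-chain keto acid dehydrogenase, was at 7.82, 7.72 and 7.74 in H_FMG and at 7.47, 7.62 and 7.38 in L_FMG, a difference of 0.27 ± 0.18 with an unadjusted limma p of 0.145. Ivd was named after its value was seen. Triglyceride synthesis had 8 of 9 genes higher and a median of 0.16. Gpam, the first acyltransferase of that route, was at 8.61, 8.57 and 8.77 in H_FMG and at 8.51, 8.26 and 8.53 in L_FMG, while Agpat2, the second, was at 9.44, 9.39 and 8.92 in H_FMG and at 9.37, 8.88 and 8.22 in L_FMG with overlap.

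Fat expansion genes, so called because they rise as adipocytes grow, had 3 of 9 (33.3%) wholly above: Cav2, Cav1 and Npr3. The list median was 0.14 between the doses but 0.04 for HFD minus ND, so the list hardly moved with the diet here. Cav2, a caveolin, was at 9.20, 9.17 and 9.18 in H_FMG and at 9.03, 9.09 and 8.72 in L_FMG. Of 13 insulin signalling genes 3 (23.1%) lay wholly above, with a list median of 0.03 that was -0.02 without L_FMG array 10. Foxo1, a transcription factor that insulin keeps out of the nucleus, was at 7.77, 7.79 and 7.79 in H_FMG, 7.63, 7.63 and 7.43 in L_FMG and 7.38, 7.30 and 7.43 in HFD. The lowest L_FMG array sat at the level of the highest HFD array. Acot2, a mitochondrial acyl-CoA thioesterase, was at 8.41, 8.19 and 8.20 in H_FMG and at 7.93, 8.05 and 7.72 in L_FMG, with H_FMG near HFD (8.35, 8.34 and 8.52).

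Other genes of fatty acid synthesis overlapped between the doses. Fasn, the fatty acid synthase, differed by 0.16 (interval -0.11 to 0.44), Acaca by 0.17 (-0.26 to 0.60), Scd1 by 0.03 (-0.22 to 0.28) and Srebf1 by 0.10 (-0.18 to 0.37). Acaca gave -0.05 without H_FMG array 8, and without L_FMG array 10 Fasn gave 0.07 and Srebf1 0.0098. Of 11 genes of that list 1 lay wholly above L_FMG, and it was Mlxipl. Lep, the leptin gene, was at 11.70, 11.28 and 11.02 in H_FMG and at 11.51, 11.43 and 10.64 in L_FMG. Its difference was 0.14 (-0.24 to 0.52), and it was -0.13 without L_FMG array 10. Of the 23 measured genes of a panel of common obesity markers, 22 had an interval within 2-fold and 16 within 1.5-fold, the exception to the first being Adgre1.

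A pair of genes of the unfolded protein response were also lower in H_FMG without overlap: Creld2, a chaperone induced by stress of the endoplasmic reticulum, was at 6.46, 6.43 and 6.31 in H_FMG and at 6.77, 6.74 and 6.62 in L_FMG, and Ern1, the stress sensor IRE1, gave -0.30 ± 0.11. Their list had a median of -0.07 with 2 of 19 wholly below, and the median lay between -0.18 without H_FMG array 3 and -0.04 without H_FMG array 8. Lists with medians near 0 included the respiratory chain at -0.01, antioxidant genes at 0.0082 and cytosolic ribosomal proteins at 0.01. Mast cell genes had a median of -0.14, or -0.08 without L_FMG array 8, and 1 of 13 (7.69%) lay wholly below L_FMG. The defining marker Cpa3 differed by -0.18 (interval -1.47 to 1.10), or by 0.12 without L_FMG array 8. Mcpt4, a chymase of connective tissue mast cells, had the lowest difference of the list (-0.86). It was at 3.12, 3.03 and 2.27 in H_FMG and at 3.97, 3.81 and 3.23 in L_FMG. Its HFD arrays, at 3.27, 5.29 and 4.94, were mostly higher.

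The doses were then placed along the change that the diet itself made. Each array was given a position by its projection on the difference between HFD and ND over all genes, with the ND mean at 0 and the HFD mean at 1. H_FMG arrays were at 0.70, 0.36 and 0.17 (mean 0.41 ± 0.27, SD) and L_FMG arrays at 0.69, 0.67 and 0.31 (mean 0.56 ± 0.21), against 0.91, 1.12 and 0.97 in HFD. All 6 arrays lay between the ND and HFD ranges. The HFD and ND arrays set the axis, which draws any other array inward from its ends, by an amount not estimated here. The doses overlapped: H_FMG array 3 sat with L_FMG arrays 4 and 8, and L_FMG array 10 with H_FMG array 6. The H_FMG minus L_FMG slope was -0.15, with an exact permutation p of 0.7 (two-sided, over the 20 splits of 6 arrays, which allow no p under 0.1). It was -0.29 without H_FMG array 3, -0.27 without L_FMG array 10, and -0.027 without H_FMG array 8.

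**Figure D3:**
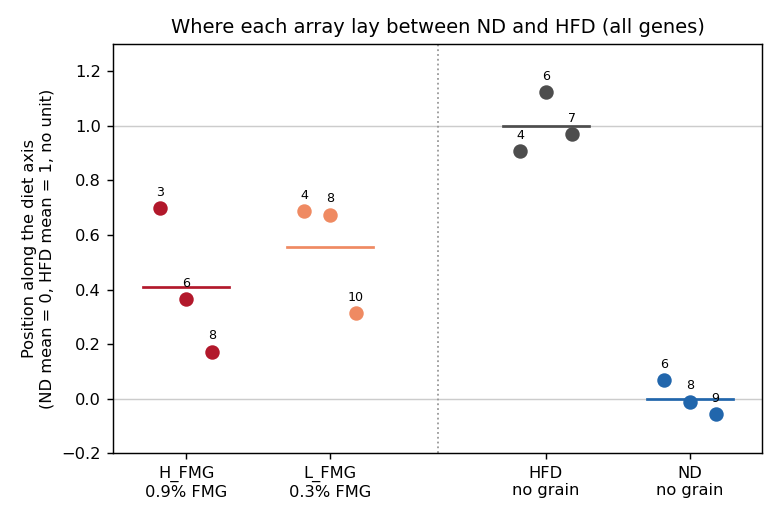
Position of each array (points, with the array's number) between the ND mean at 0 and the HFD mean at 1, over all genes, with group means as lines; H_FMG and L_FMG are left of the dotted line, HFD and ND right of it. The H_FMG arrays span 0.17 to 0.70 and the L_FMG arrays 0.31 to 0.69. No array of either dose reaches the HFD arrays, which together with the ND arrays set the axis.

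Inside each dose the spread of values within an array moved with this position. The SD over genes was 1.96, 1.88 and 1.87 in H_FMG, 1.97, 1.93 and 1.86 in L_FMG and 1.95, 1.97 and 1.98 in HFD, so the arrays nearest ND in each dose had the narrowest distribution. After quantile normalization, which gives every array the same distribution, the positions were 0.66, 0.40 and 0.18 in H_FMG and 0.63, 0.66 and 0.37 in L_FMG, and the slope was -0.14.

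Over the 1403 genes that differed between HFD and ND (8.63 percent of those tested), the differences between doses leaned in a common direction. Their slope along the diet axis was -0.16, with an exact permutation p of 0.5. Of the 1063 genes higher in HFD, 842 (79.2%) were lower in H_FMG than in L_FMG, beside 7824 of all 16248 genes. The 1063 had a median difference of -0.11, and 59 (5.55%) lay wholly below L_FMG, beside 3.28 percent of all genes. Of the 340 genes lower in HFD, 247 were higher in H_FMG than in L_FMG, beside 8424 of all 16248 genes. The 340 had a median of 0.10, and 36 (10.6%) lay wholly above, beside 4.79 percent of all genes. Genes within a tissue move together, so these counts describe 6 arrays. The 79.2% was 54.8% without H_FMG array 8, 66.3% without L_FMG array 8 and 91.1% without H_FMG array 3. Of the 340 genes, 27.4% were lower in H_FMG than in L_FMG, or 38.8% without H_FMG array 8 and 22.6% without H_FMG array 3. Side by side, the genes higher in HFD had a median of -0.39 in H_FMG and -0.31 in L_FMG against the shared HFD arrays. Those genes were picked for high values in the same HFD arrays, which by itself favours lower values in any other group.

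**Figure D4:**
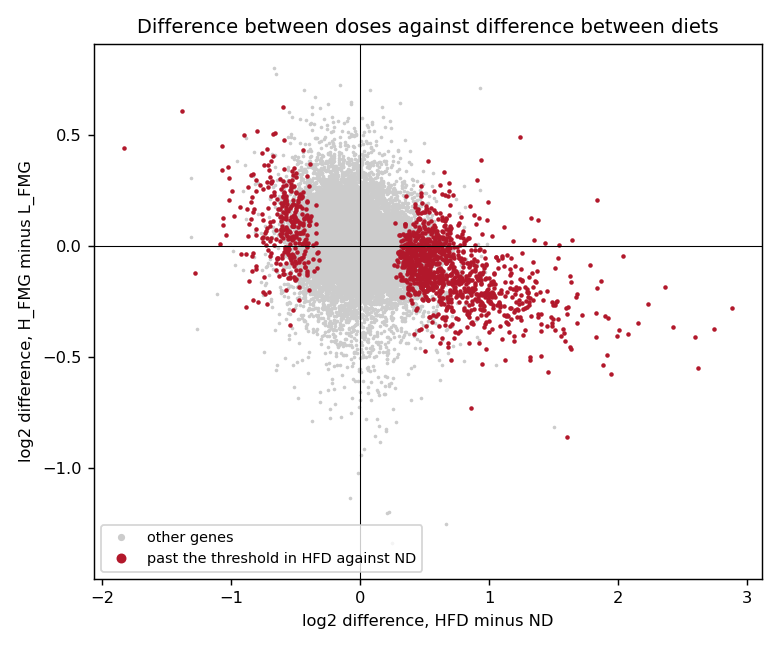
Log2 difference between doses, H_FMG minus L_FMG, against the log2 difference between diets, HFD minus ND, with 1 point per gene and the 1403 genes past the threshold in HFD against ND in red. The red points on the right lie mostly below 0 and those on the left mostly above, and most differences between doses stay within 0.5 either way.

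A line over 0, 0.3 and 0.9% of grain asked whether levels followed the dose, with the caution that the HFD arrays enter at 0. No gene passed the threshold (limma, 0 of 16248, 2115 at an unadjusted p under 0.05, smallest adjusted p 0.0664). The gene with that p was Acr, the acrosin protease of the sperm acrosome, at 5.18, 4.89 and 5.14 at 0%, 5.45, 5.64 and 5.37 at 0.3% and 5.70, 5.66 and 5.82 at 0.9%. Acr was also the 1 gene called in H_FMG against HFD (0.00615 percent, difference 0.66, adjusted p 0.0342), and L_FMG against HFD had 0 calls. Its step between the doses was 0.24 ± 0.10. Prm1, a protamine of sperm chromatin, was at 4.23, 4.25 and 4.26 in H_FMG and at 4.31, 4.21 and 4.77 in L_FMG. These counts leaned on single arrays: without H_FMG array 3 the trend called 89 genes and H_FMG against HFD 257, and without H_FMG array 6 or 8, or any 1 HFD array, H_FMG against HFD called 0.

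For the trend 10 genes were picked, those with the 5 smallest p in each direction. Predicted and olfactory genes and those under the median gene were left out. Id1, an inhibitor of helix-loop-helix factors that BMP signals induce, was 1 of them. It was at 6.17, 5.88 and 6.06 at 0%, 6.31, 6.47 and 6.81 at 0.3% and 6.82, 6.81 and 7.35 at 0.9%. Ccm2l, a scaffold of endothelial cells, was at 6.55, 6.41 and 6.59 at 0%, 6.81, 6.85 and 6.60 at 0.3% and 7.001, 7.15 and 7.05 at 0.9%. The trend was negative for Oasl2, Ifi204, Fst, Gna15 and Mcoln2. Fst, the activin-binding protein follistatin, was at 6.11, 6.30 and 6.25 at 0%, 6.08, 6.05 and 6.13 at 0.3% and 5.81, 5.72 and 5.55 at 0.9%. Gna15, a G protein subunit of blood cells, was at 5.20, 5.37 and 5.40 at 0%, 4.91, 5.10 and 4.97 at 0.3% and 4.67, 4.56 and 4.59 at 0.9%. The adjusted p of these 10 genes ran between 0.0664 and 0.118 (limma).

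Departure of L_FMG from that line was tested as well, and 0 genes passed (limma, 774 at an unadjusted p under 0.05, smallest adjusted p 0.305). Snord104, a small nucleolar RNA that guides ribosomal RNA modification, had that p. It was at 7.77, 7.70 and 7.59 at 0%, 8.46, 8.52 and 8.54 at 0.3% and 7.90, 8.29 and 8.57 at 0.9%, with H_FMG array 8 as high as the L_FMG arrays. Eif5a, a translation factor, was at 7.54, 7.63 and 7.50 at 0%, 7.08, 7.26 and 7.08 at 0.3% and 7.52, 7.38 and 7.24 at 0.9%. For both genes the lower dose lay farther from HFD than the higher dose did on average.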

How the data were processed

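Per the labels' protocols, total RNA of epididymal fat was extracted with Trizol and labelled with biotin for GeneChip whole-transcript arrays. The authors deposited 1 log2 value per probe and array; the log base was taken from the values, and the labels do not state how probes were summarised, background-corrected or normalized. The table held 24292 probes, of which 24291 had all 21 values, and its last row was incomplete. It covers chromosomes unevenly: 42.0 percent of genes on chromosome 6 and 17 genes on chromosomes 7, 8, 9, X and Y were measured, against 78.4 to 91.1 percent on the others, and the rest was not analysed here. Probe names came from the platform annotation (17067 probes with 1 symbol, 1139 with several, 6085 with none), updated through RefSeq (116 without a match kept their symbol). The brightest probe stood for each of 668 genes with several.

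Group means of the 7 groups were estimated gene by gene (limma 3.58.1, R 4.3.3) from all 21 arrays, with variances moderated along an intensity trend and a spread common to all groups. Two-sided p-values were corrected over 16248 genes with the Benjamini-Hochberg method at 0.05. Comparisons with HFD share its 3 arrays. The groups labelled BC, SMG and RMG, of 3 arrays each on the 40% fat diet, entered the fit and its spread but no comparison here. The BC and SMG diets held 0.3% of other supplements, and the amount for RMG is not given. The labels name no batch or scan date. The fit was tested on simulated data. The diet axis is the slope through the origin of an array minus the ND mean on HFD minus ND, tested by exact permutation.

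The members, the 47 gene lists (586 of 855 genes measured) and the named genes were chosen with earlier results of these data known. Named genes are the 15 largest differences per direction among non-overlapping genes at an unadjusted p under 0.05 and a mean at or above the median gene of 4.73 (predicted and olfactory genes left out), the 4 smallest p per list, the 5 smallest per direction for the trend and for the departure from it, an obesity panel and defining cell markers. The text gives a selection, and others are marked. Alternatives were quantile normalization, dim genes left out, no trend, array weights, every probe, mean of probes, contrast arrays only and each array left out. Counts of non-overlapping genes under other settings, shares of diet genes, and values of genes over 2-fold without single arrays, were added after seeing the data.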

Additional observations from a re-analysis of the deposited data

How the results depend on the processing

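No gene was called between H_FMG and L_FMG under any of 13 alternatives (251 to 1012 genes at an unadjusted p under 0.05, smallest adjusted p between 0.757 and 1). The slope along the diet axis stayed negative, between -0.29 and -0.027. Other counts moved, and the cause was not tested. H_FMG against HFD gave 566 genes with array weights, 0 when every probe was tested, and 0 to 257 with 1 array left out, the 257 without H_FMG array 3. L_FMG against HFD gave 1 with array weights and 3 with only the arrays of the contrast. The dose trend gave 1 after quantile normalization, 2 without dim genes, 222 with array weights, and 0 to 89 with 1 array left out, the 89 without H_FMG array 3. The departure from the line gave 0 to 1 with 1 array left out. Of 236 named genes 212 kept their sign, and 26 of 47 list medians did. The 30 largest differences kept theirs as well. They were chosen for non-overlapping arrays, which fixes their sign when 1 array is left out. Genes with H_FMG wholly above L_FMG numbered 890 and wholly below 642 after quantile normalization.

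No paired analysis was possible because H_FMG and L_FMG share only the number 8, H_FMG and HFD only 6, and L_FMG and HFD only 4, and nothing says that a number marks a shared animal or batch.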

Other observations

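For 8 of 16248 genes all H_FMG arrays lay above all HFD arrays and all L_FMG arrays below them, and for 0 genes the reverse held. They were BC037704, Bpifa3, Olfr1280, Olfr223, Pank3, Qrsl1, Tex43 and Tsr3, named after their values were seen. Pank3, a kinase of coenzyme A synthesis and the brightest of them, was at 9.36, 9.43 and 9.48 in H_FMG, 9.15, 9.20 and 9.01 in L_FMG and 9.28, 9.22 and 9.27 in HFD, so its steps were small (0.31 ± 0.14 between doses). Olfr1280 and Olfr223 were dim, with means of 1.48 and 1.74 over the 21 arrays on a scale that began at 0.844. Qrsl1 had the same value, 4.33, in all 3 HFD arrays. Whether 8 genes are more than arrays without a dose effect would give was not tested. Both doses lay wholly below HFD for 893 of the 16248 genes and wholly above for 547. These 2 counts share the 3 HFD arrays and were not tested against a background either.

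The acute-phase gene Lcn2, lipocalin 2, was at 6.84, 6.65 and 4.87 in H_FMG and at 8.50, 6.51 and 5.78 in L_FMG, a difference of -0.81 ± 0.58 that rested on L_FMG array 4: without it the difference was -0.03. Among 15 T and NK lymphocyte genes 10 were lower in H_FMG, 1 wholly so and 1 wholly higher. Klrd1, a receptor of natural killer cells, was at 4.04, 4.35 and 4.29 in H_FMG and at 4.81, 4.75 and 4.52 in L_FMG, and Tbx21, the T-bet transcription factor of type 1 lymphocytes, was at 4.34, 4.71 and 4.39 in H_FMG and at 4.25, 4.30 and 4.33 in L_FMG. Of 23 cytosolic ribosomal protein genes 3 lay wholly above L_FMG and 1 wholly below. Rps24, 1 of the 3, was at 4.74, 4.59 and 4.90 in H_FMG and at 4.37, 4.45 and 4.27 in L_FMG.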
